A study of Mus musculus with 12 samples.

Results

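Gene expression was compared between male and female wild-type mouse livers. The comparison rests on the 6 arrays labelled JAK2 WT, 3 from males (animals 112, 116 and 126) and 3 from females (animals 119, 132 and 147), of the 12 arrays in the series. The other 6 came from mice in which Jak2 had been deleted in hepatocytes by a Cre recombinase under the albumin (Alb) promoter. These arrays enter the comparison only in alternative fits and in the choice of the brightest probe set of each gene. The wild-type animals were littermate controls of those mice, on a mixed C57Bl/6:129Sv background, aged 8 weeks and kept on breeder chow. Whether they carried floxed Jak2 alleles or the Cre transgene, and which animals shared a litter, is not stated in the labels. Each array held RNA from the liver of 1 animal, so the spread within a group is that between animals.

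The adult rodent liver is one of the most sexually dimorphic organs in its gene expression. The pituitary secretes growth hormone in separated pulses in males and more continuously in females, and hepatocytes read this pattern through the growth hormone receptor, the kinase JAK2 and the transcription factor STAT5B. Sex-biased liver genes are known mainly for the metabolism and transport of steroids, lipids, drugs and pheromones.

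Values are deposited log2 probe set summaries, on which 1 unit is a 2-fold difference. A gene's values are given in the order male 112, 116 and 126, then female 119, 132 and 147. A difference is the male mean minus the female mean with its standard error (SE), n = 3 animals per sex, so a negative difference is higher expression in females. A gene was called when its p from limma, adjusted over all 19938 genes tested, was under 0.05. At an unadjusted limma p under 0.05 stood 1918 of the 19938 genes, and counts of list members at that threshold are to be read beside this share. Levels of different genes were measured by different probes and were not compared.

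The sex labels held for all 6 animals. Xist, the RNA that coats the inactive X chromosome, read 3.51, 4.47 and 3.77 in the males and 10.30, 10.34 and 10.52 in the females. The Y-linked translation factor gene Eif2s3y read 6.85, 7.10 and 7.27 in the males and 2.96, 2.86 and 3.02 in the females, and the Y-linked genes Kdm5d (2.04, adjusted p = 4.91e-06) and Uty (3.07, adjusted p = 1.83e-07) were also called. Correlations between pairs of arrays ran from 0.984 to 0.992, and each pair of one sex correlated more closely (0.990 or above) than any pair of opposite sex (0.987 or below). The first axis of a principal component analysis (43.2% of the variance) placed the males at -20.9, -21.3 and -12.5 and the females at 19.9, 18.8 and 16.0, so that male 126 lay closest to the females. The summed level of 10 hepatocyte markers was 16.45 to 16.57 in males and 16.43 to 16.52 in females, and limma called 0 of the 10, with 1 at an unadjusted p under 0.05.

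A small set of genes was called, some of them with a very wide difference between the sexes. At an unadjusted limma p under 0.05 stood 1832 of the 19163 autosomal genes. With 3 animals per sex, the number of calls does not measure how many genes differ. Of 19163 autosomal genes, 130 were called (0.678%), 43 higher in males (0.224%) and 87 higher in females (0.454%). At least a 2-fold difference was measured in 79 of the called genes, 27 higher in males and 52 higher in females, and at least a 10-fold difference in 3 and 9. The median difference among called genes was 1.22 for those higher in males and -1.13 for those higher in females, and it was 0.01 over all autosomal genes. In all 130 called genes the 3 males lay entirely above or entirely below the 3 females. Such separation was also found in 2886 autosomal genes in all (15.1%), so by itself it marks many more genes than the test called. The X chromosome added 5 called genes (Alas2, higher in males, and Xist, Kdm6a, Vsig4 and Cybb, higher in females) and the Y chromosome 3 (Eif2s3y, Uty and Kdm5d), which brought the total to 138 of all 19938 genes (0.692%). The call of Kdm6a was lost without any 1 of the 6 animals (limma adjusted p up to 0.152). That of Cybb was lost without male 112, male 116 or female 132 (limma adjusted p up to 0.0989). The number of calls moved with single animals: 63 autosomal genes were called without male 116 and 178 without male 126, with 74, 71, 91 and 117 without male 112, female 119, female 132 and female 147. The direction of the split did not move, since more genes were higher in females than in males in each of these fits.

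**Figure D1:**
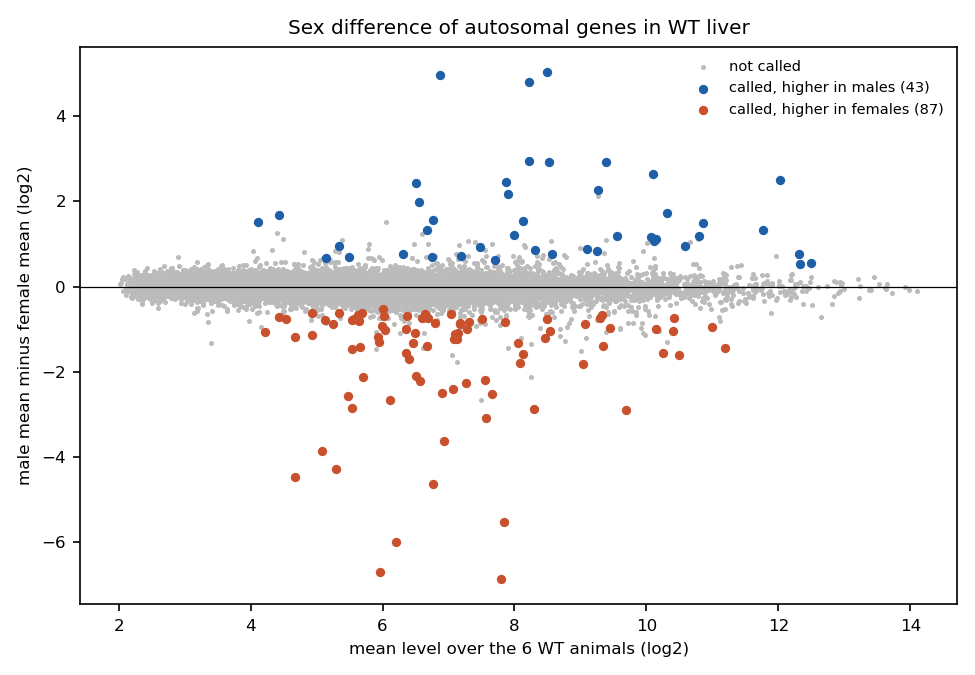
Each point is 1 autosomal gene. The horizontal axis is its mean over the 6 wild-type arrays (log2) and the vertical axis the male mean minus the female mean (log2). Blue points are the 43 genes called higher in males and orange points the 87 called higher in females, with grey for the rest. The widest differences reach 5.03 above zero (Cyp4a12a) and -6.86 below it (Cyp2b9).

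The largest differences belonged to genes higher in females, and several of these were close to the bottom of the measured range in males. Cyp2b9, a cytochrome P450 of the steroid and drug metabolising CYP2B family, read 4.17, 4.44 and 4.49 in the males and 11.35, 11.16 and 11.18 in the females (-6.86, SE 0.12, limma adjusted p = 2.7e-10), 116-fold higher in females. Its neighbour Cyp2b13 read 3.18, 2.91 and 3.49 in the males and 9.77, 8.73 and 9.10 in the females (-6.01, SE 0.23, limma adjusted p = 1.83e-07). Sult3a1, a sulfotransferase of the SULT3 family, read 2.45, 2.94 and 2.47 in the males and 9.22, 9.64 and 9.08 in the females (-6.69, SE 0.17, limma adjusted p = 8.15e-09). For each of these genes the gap between the highest male and the lowest female was wide beside the spread within either sex. In the fit of all 12 arrays, whose spread includes the Jak2-deleted groups, Cyp2b9 (adjusted p = 0.141) and Cyp2b13 (adjusted p = 0.223) were not called. The first quartile over all genes was 4.02 to 4.11 on these arrays, so Sult3a1 and Cyp2b13 in males lay among the dimmest genes measured. No detection call was used here, and background signal can make a fold difference from such a low level too small.

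The promoters of Cyp2b9 and Cyp2b13 are shown because these neighbouring genes had 2 of the widest female-biased differences. The 250 bases before each start site are from RefSeq (GRCm38.p6), at chr7:26173159-26173408, plus strand, and chr7:26061245-26061494, plus strand. They are identical at 248 of 250 bases (99.2%), and capitals mark the positions that differ, T48C and C104T from Cyp2b9 to Cyp2b13, counted from the first base shown.
Cyp2b9: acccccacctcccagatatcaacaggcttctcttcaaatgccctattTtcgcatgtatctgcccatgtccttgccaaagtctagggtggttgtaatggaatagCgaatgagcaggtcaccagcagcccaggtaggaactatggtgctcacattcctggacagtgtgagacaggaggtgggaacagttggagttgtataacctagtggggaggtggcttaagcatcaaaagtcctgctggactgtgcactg
Cyp2b13: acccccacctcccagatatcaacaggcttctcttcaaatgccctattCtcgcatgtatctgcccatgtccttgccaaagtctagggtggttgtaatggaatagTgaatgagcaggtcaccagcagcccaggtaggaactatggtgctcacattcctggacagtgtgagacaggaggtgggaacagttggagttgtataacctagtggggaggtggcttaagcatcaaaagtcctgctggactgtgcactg
Probes for near-identical genes can bind both transcripts, so the values of Cyp2b9 and Cyp2b13 may not be independent, and the same holds for Sult3a1 with Sult3a2, Cyp4a12a with Cyp4a12b, Cyp4a10 with Cyp4a31 and among Slc22a26, Slc22a27 and Slc22a29.

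Further genes with wide female bias were a transporter, an oxidase and members of several P450 families. Slc22a26, of the organic anion transporter family, read 4.36, 4.39 and 4.59 in the males and 9.28, 9.23 and 8.75 in the females (-4.64, SE 0.15, limma adjusted p = 3e-08), with both groups tight and far apart. Hao2, a peroxisomal 2-hydroxy acid oxidase, read 3.19, 3.02 and 3.24 in the males and 8.23, 7.09 and 7.0 in the females (-4.29, SE 0.27, limma adjusted p = 1.17e-05). Its male values lay below the first quartile over all genes (4.02 to 4.11), as did those of Sult3a2 and A1bg, so the limit given above for dim genes applies. Cyp4a14, a fatty acid omega-hydroxylase induced by the lipid-sensing receptor PPARA, read 4.58, 4.04 and 6.62 in the males and 9.86, 10.62 and 11.36 in the females (-5.53, SE 0.56, limma adjusted p = 0.000628), and male 126 stood above the other males. Hamp2, a hepcidin-family gene, read 7.75, 7.65 and 9.35 in the males and 11.29, 11.29 and 10.82 in the females (-2.89, SE 0.36, limma adjusted p = 0.00403), with male 126 again nearest to the females. Sult3a2 (-4.48, adjusted p = 2.65e-07), Cyp2a22 (-3.63, adjusted p = 9.58e-06), Cyp2c38 (-3.09, adjusted p = 0.000576), Atp6v0d2, a subunit of the vacuolar proton pump (-2.84, adjusted p = 4.33e-05), and Slc22a27 (-2.66, adjusted p = 0.000205) completed the group that kept its call in all 6 fits without 1 animal. A1bg, a secreted immunoglobulin-superfamily protein known for female bias in mouse liver, read 3.45, 2.73 and 3.29 in the males and 8.61, 7.65 and 4.80 in the females. Its difference was -3.86, SE 0.72, limma adjusted p = 0.0407, and female 147 lay far below the other females while still above every male. Leaving out 1 animal ended the calls of A1bg (without male 112, male 116, male 126, female 119 or female 132; adjusted p up to 0.196), Cyp4a10 (without male 112, male 116, female 132 or female 147; adjusted p up to 0.108) and Cyp4a31 (without male 112, male 116, female 132 or female 147; adjusted p up to 0.111). With all 12 arrays Hao2, Cyp2a22, Cyp2c38 and Slc22a27 were not called (adjusted p up to 0.0584), and with a robust variance prior A1bg, Cyp4a10, Cyp4a31, Cyp2c38, Cyp4a14 (adjusted p = 0.158) and Hamp2 (adjusted p = 0.187) were not.

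The genes highest in males were led by a fatty acid elongase and the CYP4A12 hydroxylases. Elovl3, which elongates long-chain fatty acids, read 9.97, 9.27 and 8.82 in the males and 4.46, 4.22 and 4.5 in the females (4.96, SE 0.23, limma adjusted p = 9.74e-07), 31.1-fold higher in males. Cyp4a12a, an arachidonic acid omega-hydroxylase, read 10.88, 10.84 and 11.33 in the males and 3.04, 7.05 and 7.86 in the females (5.03, SE 0.92, limma adjusted p = 0.0369), and Cyp4a12b read 10.48, 10.16 and 11.22 in the males and 3.81, 6.44 and 7.23 in the females (4.79, SE 0.67, limma adjusted p = 0.00774). The males spanned a narrower range than the females for both genes, and female 119 was far lower than the other females. The values of female 119 lay below the first quartile over all genes (4.02 to 4.11). The call of Cyp4a12a was lost without male 112, male 116, male 126 or female 132 (adjusted p up to 0.147). Its difference was 3.56 without female 119. Cyp4a12a and Cyp4a12b were also not called with all 12 arrays (adjusted p = 0.0815 and 0.0644) or with a robust variance prior (adjusted p = 0.417 and 0.291).

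Steroid and xenobiotic enzymes followed. Hsd3b5, a 3-ketosteroid reductase of male liver, read 9.55, 9.90 and 9.64 in the males and 6.02, 7.36 and 6.83 in the females (2.96, SE 0.27, limma adjusted p = 0.000275). Cyp7b1, the oxysterol 7-alpha-hydroxylase of the alternative bile acid pathway, read 11.33, 11.17 and 10.04 in the males and 7.79, 8.18 and 7.79 in the females (2.92, SE 0.28, limma adjusted p = 0.000416). Cyp2d9, the 16-alpha-hydroxylase of testosterone, read 11.42, 11.45 and 11.39 in the males and 8.17, 8.94 and 9.19 in the females (2.65, SE 0.21, limma adjusted p = 0.000111). For each of these the gap between the closest male and female was wider than the range within either sex, and male 126 was the lowest male for Cyp7b1. Gstp1, a pi-class glutathione transferase, read 13.31, 13.61 and 12.91 in the males and 10.60, 10.98 and 10.71 in the females (2.51, SE 0.17, limma adjusted p = 2.91e-05), without overlap. Mup21, a major urinary protein gene (2.45, adjusted p = 0.00206), Serpina12, the adipokine vaspin (2.44, adjusted p = 0.00694), Selenbp2, a selenium-binding protein (2.26, adjusted p = 0.000543), Cyp2u1, a fatty acid hydroxylase (2.18, adjusted p = 0.00077), and Ttc39c (1.72, adjusted p = 0.00565) were called in all 6 fits without 1 animal. Obp2a, an odorant-binding lipocalin, differed by 1.69, adjusted p = 0.0218. The call of Obp2a was lost without male 112, male 116, female 119, female 132 or female 147 (adjusted p up to 0.118). Hsd3b5 (adjusted p = 0.339) and Cyp7b1 (adjusted p = 0.0891) were not called with all 12 arrays, nor Mup21, Serpina12 and Obp2a with a robust variance prior (adjusted p up to 0.191).

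**Figure D2:**
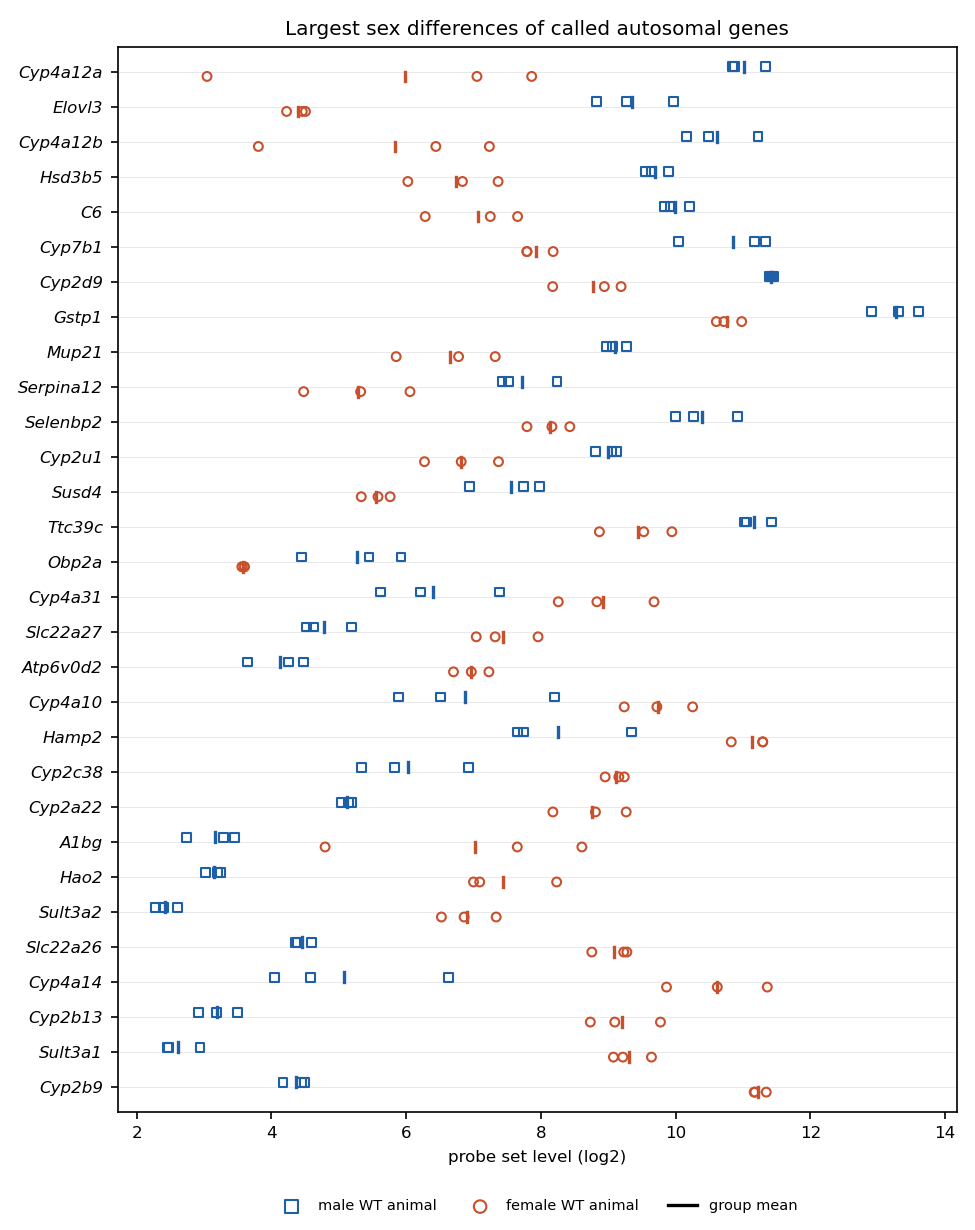
The 15 autosomal genes with the largest called difference in each direction, with 1 point per animal (log2 level on the horizontal axis, blue squares for the 3 males, orange circles for the 3 females and a short bar for each group mean). Predicted and clone-named genes are left out. Males and females do not overlap for any gene shown, and Cyp4a12a, A1bg and Cyp4a14 show a wide spread within 1 sex.

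Textbook lists of sex-biased mouse liver genes differed almost wholly in their known direction. Of 27 measured genes listed as male-biased, 19 were called higher in males and 0 higher in females, and 26 of 27 had a positive difference, with a median of 1.52. Of 30 measured genes listed as female-biased, 21 were called higher in females and 0 higher in males, and all 30 had a negative difference, with a median of -2.16. At an unadjusted p under 0.05 stood 26 of the 27 and 26 of the 30, against 1918 of all 19938 genes. The shares called over all genes were 0.236% higher in males and 0.456% higher in females. With 1 animal left out, the called male-biased genes ran from 11 (without male 116) to 18 and the called female-biased genes from 15 (without male 112) to 20. These lists were put together from general knowledge with earlier results of these data in view, so their direction is a description of these livers.

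Cytochrome P450 genes of families 1 to 4, which act mainly on drugs, steroids and fatty acids, were split between the sexes. Of 67 measured, 5 were called higher in males (Cyp4a12a, Cyp4a12b, Cyp2d9, Cyp2u1 and Cyp2f2) and 8 higher in females (Cyp2b9, Cyp2b13, Cyp4a14, Cyp2a22, Cyp2c38, Cyp4a10, Cyp4a31 and Cyp2c37), against 0.236% and 0.456% of all genes. The other 54 were not called, and the median of the family was -0.03. With 1 animal left out, 3 or 4 were called higher in males (3 without any 1 of the males) and 6 to 9 higher in females. CYP4A genes were called in both directions: Cyp4a10 (-2.87, adjusted p = 0.0197) and Cyp4a31 (-2.52, adjusted p = 0.0206), which hydroxylate fatty acids, were higher in females, as was Cyp4a14, whereas the Cyp4a12 pair was higher in males. Cyp2f2, a marker of periportal hepatocytes, was 1.7-fold higher in males (0.76, adjusted p = 0.0292). The call of Cyp2f2 was lost without male 112, male 116, male 126, female 119 or female 147 (adjusted p up to 0.129).

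In some families of conjugating enzymes the called genes were all higher in 1 sex. Over all genes, 0.236% were called higher in males and 0.456% higher in females. Of 16 sulfotransferases, 5 were called and all 5 were higher in females: Sult3a1, Sult3a2, the phenol sulfotransferase Sult1a1 (-1.39, adjusted p = 0.021), Sult1c2 (-1.02, adjusted p = 0.00077) and Sult1d1 (-0.96, adjusted p = 0.00493). Papss2, which makes the sulfate donor of these enzymes, was also higher in females (-1.0, adjusted p = 0.00866), and was picked out after its value was seen. Of 10 UDP-glucuronosyltransferases, 2 were called and both were higher in males, Ugt2b1 (0.96, adjusted p = 0.033) and Ugt2b38 (0.83, adjusted p = 0.0253), with a family median of 0.45. Among 22 glutathione transferases only Gstp1, higher in males, and Gstt3 (-1.32, adjusted p = 0.0325), higher in females, were called. Among 5 flavin monooxygenases, which oxidise nitrogen and sulfur in drugs, Fmo2 (-2.27, adjusted p = 2.84e-05), Fmo1 (-1.05, adjusted p = 0.00694) and Fmo4 (-1.0, adjusted p = 0.0426) were higher in females, and Fmo5 and Fmo9 had differences of 0.05 and 0.07. Fmo2 read 5.95, 6.06 and 6.36 in the males and 8.14, 8.37 and 8.66 in the females. Of 16 carboxylesterases, Ces3a was called (0.56, adjusted p = 0.0385), and of 28 alcohol and aldehyde dehydrogenases limma called 0, with 4 at an unadjusted p under 0.05. Leaving out 1 animal ended the calls of Sult1a1 (without male 112, female 119 or female 132; adjusted p up to 0.103), Papss2 (without male 112, male 116 or female 119; adjusted p up to 0.056), Ugt2b1 (without male 112, male 116, male 126, female 119 or female 147; adjusted p up to 0.161), Ugt2b38 (without male 112, male 116, female 119 or female 147; adjusted p up to 0.129), Gstt3 (without male 112, male 116, female 119 or female 132; adjusted p up to 0.165), Fmo4 (without male 112, male 116, female 119, female 132 or female 147; adjusted p up to 0.204) and Ces3a (without male 112, male 116, male 126, female 119, female 132 or female 147; adjusted p up to 0.165).

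**Figure D3:**
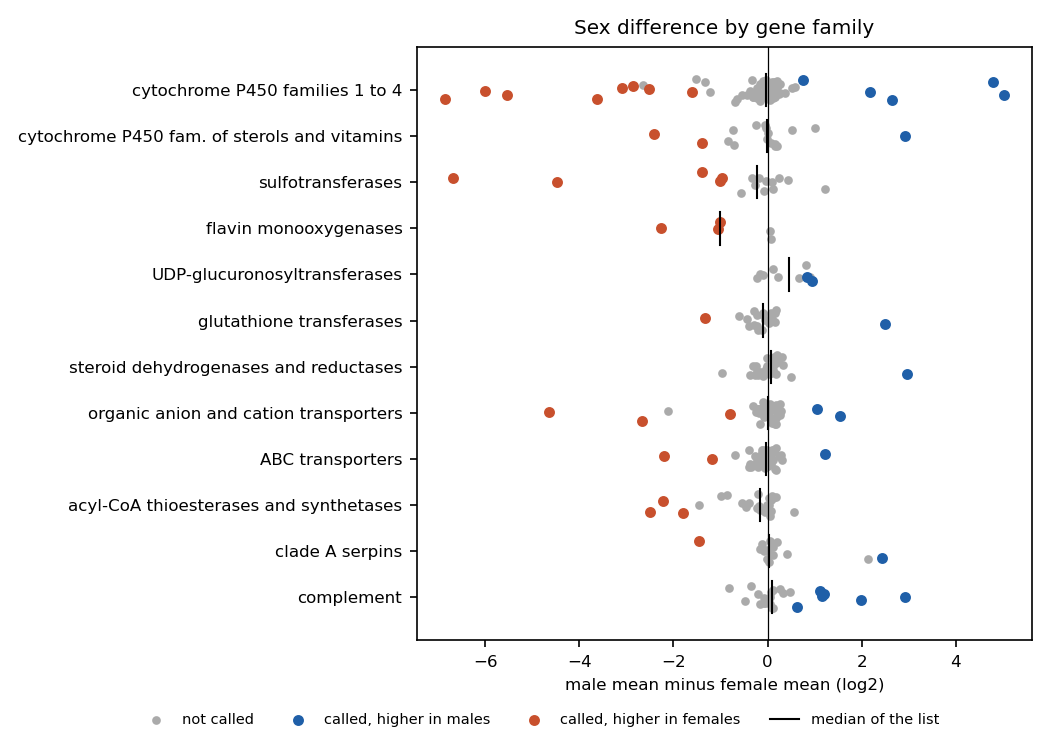
Difference between the sexes (male mean minus female mean, log2) for every measured gene of 12 families, 1 point per gene. Blue points were called higher in males, orange points higher in females and grey points were not called, and the black bar is the family median. All called sulfotransferases and flavin monooxygenases lie left of zero and all called UDP-glucuronosyltransferases and complement genes right of it, while P450 genes lie on both sides.

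Transporters of organic ions showed bias in both directions. For this and the next family, 0.236% of all genes were called higher in males and 0.456% higher in females. Of 38 measured, Slc22a26, Slc22a27 and Slc22a29 (-0.81, adjusted p = 0.0113) were higher in females, and Slc22a7, the organic anion transporter OAT2 (1.55, adjusted p = 0.0499), and Slco1a1, a bile salt and steroid conjugate uptake transporter (1.06, adjusted p = 0.0369), were higher in males. Slco1a1 read 10.74, 10.58 and 10.62 in the males and 9.10, 10.03 and 9.63 in the females, without overlap. Among 44 ABC transporters, the efflux pump gene Abcg2 was higher in males (1.22, adjusted p = 0.003), and the peroxisomal fatty acyl-CoA transporter Abcd2 (-2.19, adjusted p = 7.56e-05) and the drug efflux pump gene Abcb1a (-1.19, adjusted p = 0.00774) were higher in females. Abcd2 read 6.70, 6.04 and 6.63 in the males and 8.79, 8.59 and 8.57 in the females, without overlap. Calls that rested on single animals were those of Slc22a29 (without male 112, male 116 or female 119; adjusted p up to 0.072), Slc22a7 (without male 112, male 116, male 126, female 119 or female 132; adjusted p up to 0.201) and Slco1a1 (without male 112, male 116, male 126, female 119 or female 147; adjusted p up to 0.165).

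Bile acid and steroid synthesis held calls in both directions, where 0.692% of all genes were called. Besides Cyp7b1, the genes called among 27 of bile acid synthesis and transport were Slco1a1, higher in males, and Cyp39a1, the 24-hydroxycholesterol 7-alpha-hydroxylase, higher in females (-1.40, adjusted p = 0.00447). Cyp7a1, the rate-limiting enzyme of the classical pathway, had a difference of -0.84, adjusted p = 0.599, and Cyp8b1, which sets the share of cholic acid, one of 1.01, adjusted p = 0.122, with males entirely above females and a call without female 132 (1.36, adjusted p = 0.00121). Cyp17a1, the steroid 17-alpha-hydroxylase, read 5.61, 5.62 and 6.34 in the males and 8.29, 9.28 and 7.25 in the females and was higher in females (-2.41, SE 0.40, limma adjusted p = 0.021). Hsd3b5 was the only called gene among 29 steroid dehydrogenases and reductases. The call of Cyp17a1 was lost without male 112, male 116 or female 119 (adjusted p up to 0.123).

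On the list of fatty acid oxidation genes and PPARA targets, the calls lay in 1 direction. The list does not hold the fatty acid hydroxylase genes Cyp4a12a, Cyp4a12b and Cyp2u1, which were called higher in males. Of 28 measured, 6 were called higher in females (Cyp4a14, Hao2, Cyp4a10, Cyp4a31, Acot3 and Acot4) and 0 in males, against 0.456% and 0.236% of all genes. The median of the list was -0.11. A positive difference was found for 11 of the 28, and at an unadjusted p under 0.05 stood 11 genes higher in females and 2 higher in males. The count higher in females ran from 4 to 7 with 1 animal left out, with 1 gene higher in males without female 147. Acot3, a peroxisomal acyl-CoA thioesterase, read 5.45, 5.68 and 5.81 in the males and 8.28, 8.11 and 8.05 in the females (-2.50, SE 0.12, limma adjusted p = 1.5e-06), and its neighbour Acot4 differed by -1.79, adjusted p = 0.00013. Acnat2, a peroxisomal acyl-CoA amino acid acyltransferase, was also higher in females (-2.22, adjusted p = 0.0211). In lipid uptake, Cd36, a fatty acid translocase (-1.32, adjusted p = 0.031), and Vldlr, the very-low-density lipoprotein receptor (-1.47, adjusted p = 0.0136), were higher in females and Lpl, lipoprotein lipase, was higher in males (0.77, adjusted p = 0.0136). Cd36 read 5.38, 5.64 and 6.39 in the males and 6.78, 7.24 and 7.36 in the females, without overlap. Calls were lost with 1 animal left out for Acnat2 (without male 112, male 116, female 119 or female 132; adjusted p up to 0.124), Cd36 (without male 112, male 116, female 132 or female 147; adjusted p up to 0.164), Vldlr (without male 112; adjusted p = 0.0815) and Lpl (without male 112, male 116, female 119 or female 132; adjusted p up to 0.0805).

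Lipid synthesis genes varied widely among the males. Elovl3 was the only called gene among 27 of fatty acid and triglyceride synthesis, against 0.692% of all genes. Fasn, fatty acid synthase, read 8.61, 9.22 and 11.17 in the males and 10.83, 11.55 and 10.51 in the females (-1.30, adjusted p = 0.447), and the stearoyl-CoA desaturase gene Scd1 read 12.03, 11.32 and 13.50 in the males and 12.93, 13.29 and 12.77 in the females (-0.71, adjusted p = 0.646). For both, male 126 was far above the other males and within or above the female range. The mean over the list was 9.08, 9.08 and 9.99 in the males and 9.43, 9.87 and 9.38 in the females. All 20 genes of cholesterol synthesis had a negative difference (median -0.63), and limma called 0 of them, with 13 at an unadjusted p under 0.05. Their mean was 8.29, 8.45 and 9.31 in the males and 9.27, 9.51 and 9.17 in the females, and male 126 was the highest male for 20 of 20 genes and within the female range for 10. Without male 126, 11 of the 20 were called and all 11 were higher in females, with a median of -0.98 for the list. In that fit 188 of all 19938 genes were called. Sqle, squalene epoxidase, then differed by -1.90, adjusted p = 0.000981, and Hmgcs1, the cytosolic HMG-CoA synthase, by -1.43, adjusted p = 0.00527, against -1.36, adjusted p = 0.201 and -1.10, adjusted p = 0.12 with all animals. Fasn (-2.05, adjusted p = 0.00645) and Scd1 (-1.32, adjusted p = 0.0211) were also called without it, among 7 genes of the fatty acid list, 6 of them higher in females. The genes and the animal in this step were picked out after the values were seen, and which of the 3 males stands for the group cannot be told from 3 animals.

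**Figure D4:**
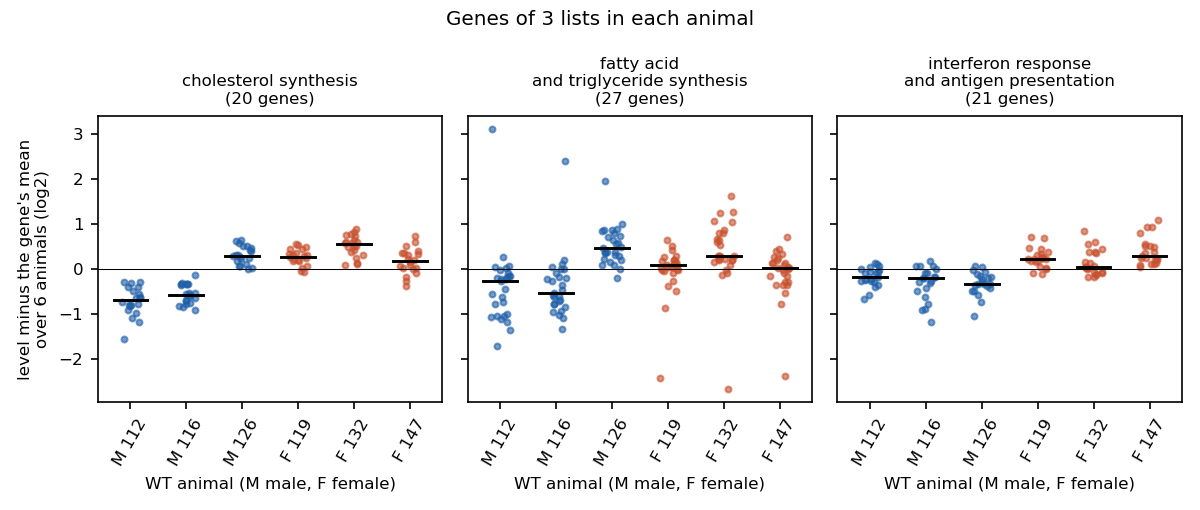
Genes of 3 lists in each of the 6 animals (M male, F female), 1 point per gene, as the level minus that gene's mean over the 6 animals (log2), with a black bar at the median of the animal. The median of male 126 lies among those of the females for cholesterol synthesis and above them for fatty acid synthesis, and the interferon medians of the males all lie below those of the females.

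Growth hormone signalling genes were not called by their brightest probe set. Of 20 genes from the receptor to its feedback inhibitors, limma called 0, with 4 at an unadjusted p under 0.05, and the median difference was -0.12. The receptor gene Ghr (0.12, adjusted p = 0.809), the kinase gene Jak2 (-0.35, adjusted p = 0.47) and Stat5b (-0.06, adjusted p = 0.926) were not called. Igf1, which encodes the circulating growth factor induced by growth hormone, read 10.38, 10.35 and 10.42 in the males and 10.39, 10.78 and 10.36 in the females (-0.12, adjusted p = 0.839), and its binding partner Igfals had a difference of -0.27, adjusted p = 0.733. The differences of Stat5b (0.0051 without male 126) and Igf1 (0.014 without female 132) changed sign when 1 animal was left out. Socs2, a STAT5-induced feedback inhibitor, read 5.70, 7.33 and 5.71 in the males and 7.74, 8.0 and 8.33 in the females, so all females lay above all males (-1.77, SE 0.36, limma adjusted p = 0.0653). It was called without male 116 (-2.32, adjusted p = 0.00018). A separate probe set of Socs2, tested with every probe set on its own, differed by -0.97 (SE 0.14, limma adjusted p = 0.01). Cish, another feedback inhibitor, read 5.41, 7.0 and 6.45 in the males and 6.92, 7.21 and 7.05 in the females (-0.78, adjusted p = 0.44), with overlap. Male 112 had the lowest Cish value of all 6 animals, and male 116 the highest Socs2 and Cish values among males. On a list of 16 genes for the IGF axis and growth factor receptors, only Fgl1 was called, higher in females (-1.56, adjusted p = 0.000444), against 0.692% of all genes. Fgl1 encodes a secreted fibrinogen-like hepatokine and is itself neither an IGF axis nor a growth factor receptor gene. No gene of those kinds on the list was called. The epidermal growth factor receptor gene Egfr was not called but separated the sexes (1.05, adjusted p = 0.139).

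Called transcriptional regulators were higher in females. Trim24, a nuclear receptor co-regulator, read 6.53, 6.44 and 6.42 in the males and 7.82, 7.77 and 7.52 in the females (-1.24, SE 0.11, limma adjusted p = 0.000326), and Tox, a high-mobility group factor, was also higher in females (-0.93, adjusted p = 0.0192). They were the called genes among 25 liver transcription factors (8%, against 0.692% of all genes). Cux2, a repressor of male-biased genes known from female liver, read 5.67, 5.44 and 5.71 in the males and 6.48, 6.61 and 5.94 in the females (-0.74, adjusted p = 0.102), without overlap, and was called only without female 147 (-0.94, adjusted p = 0.0112). Bcl6, a repressor known to be higher in male liver, read 8.58, 6.05 and 5.80 in the males and 5.15, 5.19 and 5.53 in the females (1.52, adjusted p = 0.387). All males were above all females, but male 112 stood far above the other males, and the SD was 1.54 in males and 0.21 in females. Onecut1, the gene of HNF6, a factor induced by growth hormone, read 7.39, 8.89 and 8.38 in the males and 8.40, 8.71 and 8.36 in the females (-0.27, adjusted p = 0.843), with male 112 lowest, and its difference was 0.14 without that animal. Of 19 nuclear receptors limma called 0, with 3 at an unadjusted p under 0.05. The oestrogen receptor gene Esr1 (-0.79, adjusted p = 0.174) separated the sexes, and the xenobiotic receptor genes Nr1i2 (-0.24, adjusted p = 0.592) and Nr1i3 (-0.45, adjusted p = 0.53) were not called. The call of Tox was lost without male 112, male 126, female 119 or female 147 (adjusted p up to 0.102).

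**Figure D5:**
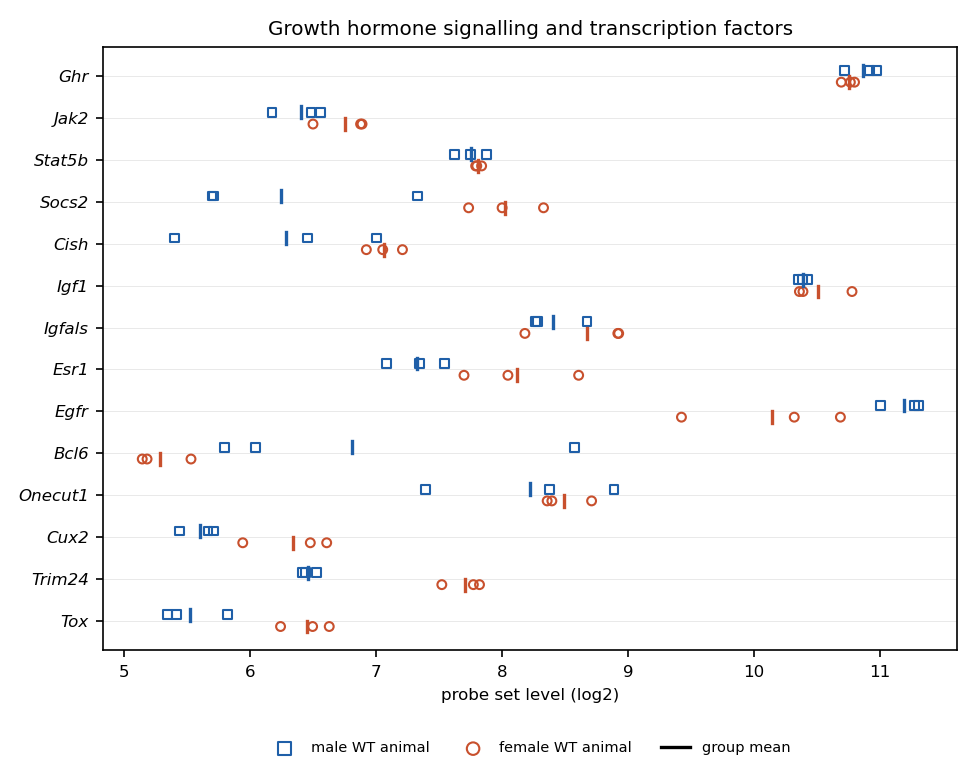
Expression (log2) of genes of growth hormone signalling and of liver transcription factors in each animal, blue squares for males, orange circles for females and a short bar for each group mean. Trim24 separates the sexes with little spread, Socs2 and Bcl6 separate them with wide spread among males, and Igf1, Stat5b and Onecut1 overlap.

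Complement genes, which encode plasma proteins of innate defence, included 6 called genes of 23, all higher in males, against 0.236% of all genes. The median of the 23 was 0.11 and 8 had a negative difference, 3 of them at an unadjusted p under 0.05, with Mbl2, a mannose-binding lectin, lowest (-0.81, adjusted p = 0.0919). Without male 126, 1 complement gene was called higher in females. The count fell to 2 without male 116, 3 without female 119 and 4 without male 112. C6, a component of the membrane attack complex, read 10.21, 9.84 and 9.92 in the males and 6.28, 7.65 and 7.25 in the females (2.93, SE 0.28, limma adjusted p = 0.000402), and other components of that complex, C8b (1.19, adjusted p = 0.00892), C9 (1.16, adjusted p = 0.0129) and C8a (1.11, adjusted p = 0.0139), had smaller differences. The regulator gene Susd4 read 7.74, 7.98 and 6.94 in the males and 5.33, 5.76 and 5.58 in the females (2.0, adjusted p = 0.00183), and C4a differed by 0.63, adjusted p = 0.0197. C8g, which pairs with C8a in the protein, had a difference of 0.07, adjusted p = 0.928, and C7 one of -0.20, adjusted p = 0.665. Of 19 coagulation genes limma called 0, with 0 at an unadjusted p under 0.05. Calls that rested on single animals were those of C8b (without male 116; adjusted p = 0.058), C9 (without male 116 or female 119; adjusted p up to 0.0731), C8a (without male 112, male 116 or female 119; adjusted p up to 0.0877) and C4a (without male 112, male 116, female 119, female 132 or female 147; adjusted p up to 0.103). With all 12 arrays C6 had an adjusted p of 0.073.

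Among other plasma protein genes, calls lay in both directions, where 0.236% of all genes were called higher in males and 0.456% higher in females. Of 30 acute phase and metal-binding genes, Hamp2 and the orosomucoid genes Orm2 (-1.57, adjusted p = 0.006) and Orm3 (-1.30, adjusted p = 0.0109) were higher in females, and Orm1 (0.07, adjusted p = 0.938) was not called. Hamp, the main hepcidin gene and regulator of iron, had a difference of -0.63, adjusted p = 0.0586, 1.54-fold against 7.4-fold for Hamp2. Among 15 clade A serpins, Serpina6, corticosteroid-binding globulin, was higher in females (-1.45, adjusted p = 0.00979) and Serpina12 higher in males. Of 3 major urinary protein genes with a probe set of their own, Mup21 was called, and Mup3 (0.72, adjusted p = 0.227) and Mup5 (0.53, adjusted p = 0.157) were not. The fits without 1 animal ended the calls of Orm3 (without male 116, female 119 or female 132; adjusted p up to 0.0633) and Serpina6 (without male 112; adjusted p = 0.0544).

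Interferon-induced and antigen-presenting genes leaned towards females. All 21 had a negative difference, with a median of -0.43, and 4 were called: the guanylate-binding proteins Gbp3 (-1.43, adjusted p = 0.0142) and Gbp7 (-1.24, adjusted p = 0.00016), the antiviral gene Ifit3 (-0.89, adjusted p = 0.00694) and the chemokine gene Cxcl9 (-0.69, adjusted p = 0.0228). Gbp7 read 6.46, 6.52 and 6.56 in the males and 7.85, 7.72 and 7.67 in the females, and the list mean was 6.18, 6.03 and 6.04 in the males and 6.59, 6.5 and 6.75 in the females, without overlap. All 4 called genes were higher in females, against 0.456% of all genes. The list had 2 called genes without male 116 or without female 119. Markers of several non-parenchymal cells separated the sexes in the same direction. The summed level of 11 Kupffer cell and macrophage markers was 9.73 to 10.13 in males and 10.28 to 10.67 in females, that of 11 endothelial markers 10.41 to 10.73 in males and 10.81 to 11 in females, that of 11 stellate cell and fibroblast markers 10.65 to 10.73 in males and 10.89 to 11.24 in females and that of 6 B cell and plasma cell markers 6.85 to 6.88 in males and 6.90 to 7.04 in females. At an unadjusted p under 0.05 stood 8, 6, 5 and 1 of these genes, all higher in females. In the same order, 1, 2, 3 and 1 genes of the lists had a positive difference. For 1 endothelial marker and 1 stellate cell and fibroblast marker, all males lay above all females. The B cell and plasma cell sums lay close together, and 1 of the 6 genes separated the sexes. The mean of these 6 markers overlapped between the sexes, at 3.97 in male 126 and 3.96 in female 132. Among these 4 marker lists limma called only the X-linked macrophage gene Vsig4 (-0.85, adjusted p = 0.0218). Neutrophil, T and NK cell, cholangiocyte and pancreatic markers overlapped between the sexes. The part of other cells in the interferon difference was not tested, and fewer cells of a type and less RNA per cell cannot be told apart in whole liver. Calls were lost with 1 animal left out for Gbp3 (without male 116 or female 119; adjusted p up to 0.088), Cxcl9 (without male 112, male 116, female 119 or female 132; adjusted p up to 0.133) and Vsig4 (without male 112, male 116, female 132 or female 147; adjusted p up to 0.128).

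Among the other cell type markers limma called 1 gene, and it was higher in males. Alas2, the X-linked erythroid enzyme of haem synthesis, read 9.67, 9.37 and 9.43 in the males and 7.05, 8.01 and 7.03 in the females (2.13, SE 0.23, limma adjusted p = 0.000967). The other 3 measured erythroid markers, Slc4a1 (0.05), Hemgn (0.02) and Ermap (-0.01), had differences near zero, so the summed erythroid level (9.63 to 9.86 in males and 7.97 to 8.54 in females) follows Alas2. Summed adipocyte markers were 13.27 to 13.37 in males and 13.09 to 13.20 in females and summed skeletal muscle markers 7.89 to 8.05 in males and 7.69 to 7.75 in females, with 0 of either called by limma and 1 and 2 at an unadjusted p under 0.05. The adipocyte sum goes against most of its members, since 4 of 6 had a negative difference and the gene at an unadjusted p under 0.05 was higher in females.

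Lists of central metabolism and other processes held 1 called gene at most, where 0.692% of all genes were called. Among 34 genes of amino acid and urea metabolism, only Oat, ornithine aminotransferase, was called and was higher in females (-0.96, adjusted p = 0.0109). Ccnd1, cyclin D1, was the only called gene of 19 in the cell cycle (-1.59, adjusted p = 0.0206), and Gadd45a, a stress-induced growth arrest gene, the only one of 15 immediate early genes (-1.11, adjusted p = 0.000509). Both were higher in females. Of genes that mark the zones of the lobule, 1 of 13 pericentral genes (Oat) and 1 of 14 periportal genes (Cyp2f2) was called. Limma called 0 of 18 genes of glucose metabolism, 0 of 18 clock genes and 0 of 20 genes of endoplasmic reticulum stress. At an unadjusted p under 0.05 stood 2, 3 and 5 of them, against 1918 of all 19938 genes. Leaving out 1 animal ended the calls of Oat (without female 119; adjusted p = 0.0542) and Ccnd1 (without male 116, male 126, female 119 or female 147; adjusted p up to 0.108).

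A share of the called genes lay beside each other in the order of the measured genes. In this order along the chromosomes, 27 of the 130 called autosomal genes (20.8%) had an immediate neighbour called in the same direction. The order holds only the 19163 autosomal genes measured, so genes that were not measured can lie between such neighbours. A called neighbour of any direction was found for 1.18% of the genes that were not called. There were 12 such runs, 3 of them with 3 genes: Fmo4, Fmo1 and Fmo2 on chromosome 1, Cyp4a14, Cyp4a10 and Cyp4a31 on chromosome 4, and Slc22a26, Slc22a27 and Slc22a29 on chromosome 19, all higher in females. The pairs were Cyp2b13 and Cyp2b9, Sult3a2 and Sult3a1, Acot4 and Acot3, Orm3 and Orm2, and Gbp7 and Gbp3, higher in females, and Cyp4a12a and Cyp4a12b, C8b and C8a, Aox1 and Aox3, and Nat8f5 and Nat8, higher in males. Each run lies within 1 gene family. On chromosome 4 the male-biased Cyp4a12b was followed by the female-biased Cyp4a14, the only place in this order where called genes of opposite direction were neighbours.

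Matches to the STAT core motif, spelled TTCNNNGAA, were counted in the 250 bases before the start site, on a motif that reads the same on both strands. Among promoters of genes called higher in females, 7 of 77 held a match (9.09%), and among those of genes called higher in males 3 of 36 (8.33%), against 1210 of 18440 autosomal promoters (6.56%). A promoter sequence was at hand for 63 of the 87 and 32 of the 43 genes. The 10 called genes with a match were A1bg, Gbp7, Hamp2, Lilra5, Slc22a26, Sult3a1 and Tgm1, higher in females, and Arsa, C8a and Nox4, higher in males. The 4 promoters below are examples chosen after the matches were seen, and capitals mark the match. They lie at chr10:33857472-33857721, plus strand, chr19:7802668-7802917, minus strand, chr7:30924182-30924431, minus strand, and chr4:104876399-104876648, minus strand (RefSeq, GRCm38.p6).
Sult3a1: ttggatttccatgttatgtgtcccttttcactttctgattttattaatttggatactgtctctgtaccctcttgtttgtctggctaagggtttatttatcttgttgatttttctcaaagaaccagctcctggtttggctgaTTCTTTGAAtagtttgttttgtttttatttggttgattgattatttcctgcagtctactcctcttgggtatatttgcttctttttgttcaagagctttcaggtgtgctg
Slc22a26: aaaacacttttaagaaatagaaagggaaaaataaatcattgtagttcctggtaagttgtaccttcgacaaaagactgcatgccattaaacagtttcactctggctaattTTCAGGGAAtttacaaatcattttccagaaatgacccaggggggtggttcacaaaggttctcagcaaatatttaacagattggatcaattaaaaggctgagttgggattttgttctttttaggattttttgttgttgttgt
Hamp2: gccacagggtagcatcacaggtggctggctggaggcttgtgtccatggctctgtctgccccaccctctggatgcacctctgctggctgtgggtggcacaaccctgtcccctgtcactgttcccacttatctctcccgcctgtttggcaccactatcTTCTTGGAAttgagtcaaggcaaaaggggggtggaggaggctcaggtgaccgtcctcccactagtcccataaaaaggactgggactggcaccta
C8a: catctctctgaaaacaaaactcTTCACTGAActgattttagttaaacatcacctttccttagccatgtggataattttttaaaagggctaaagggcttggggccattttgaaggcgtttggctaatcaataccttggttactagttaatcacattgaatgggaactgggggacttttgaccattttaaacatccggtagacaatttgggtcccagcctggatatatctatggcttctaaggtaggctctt
The match is TTCTTTGAA for Sult3a1, TTCAGGGAA for Slc22a26, TTCTTGGAA for Hamp2 and TTCACTGAA for C8a. It ends 100, 132, 85 and 219 bases before the start. The Cyp2b9 and Cyp2b13 promoters above hold 0 matches. A match is a description of the sequence and no evidence of binding.

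Among called genes, the animals of 1 sex were not equally often the lowest or the highest of their group. Among the 43 genes higher in males, male 126 was the lowest male for 24, and female 119 was the lowest female for 26, while female 132 was the highest for 24. Among the 87 genes higher in females, male 126 was the highest male for 50 and female 147 the lowest female for 42. Such counts were not made over all genes, and the genes were called from these same values. The median SD over all genes was 0.129 in males and 0.134 in females, and the SD was larger in males for 48.0% of genes. Among called autosomal genes, an SD above 1 was found for 2 genes in males and 5 in females, against 23 in males and 19 in females over all genes. Of the 130 calls, 52 held in all 6 fits without 1 animal, 17 higher in males and 35 higher in females, Elovl3, Cyp2d9, Cyp2b9 and Sult3a1 among them.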

How the data were processed

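RNA from 1 liver per animal was labelled with the Affymetrix whole-transcript kits, per the labels' protocols, and the arrays went through Affymetrix Expression Console (submitters' processing notes). Its algorithm, version and normalization are not given in those sources. The authors deposited log2 summaries per probe set, from 1.22 to 14.82, with array medians from 5.00 to 5.07. The number of arrays limits the precision. Of 35557 probe sets, 21789 had 1 gene symbol in the platform table (1621 had several and 12147 none), 21698 of these matched the RefSeq gene table (GRCm38.p6) by identifier, and each of 19938 genes was represented by its brightest probe set (mean of 12 arrays). limma 3.58.1 (lmFit and eBayes, R 4.3.3) was fitted to the 6 wild-type arrays without filter or covariates (4 residual and 6.66 prior degrees of freedom), two-sided, with Benjamini-Hochberg adjustment over all genes. The procedure was tested on simulated data. The comparison, its members and the 50 gene and marker lists were chosen with earlier results of these data known. Marker levels were summed on the linear scale and given as log2. Up to 15 autosomal genes per direction with the largest called difference and no overlap were named, predicted genes left out, with up to 4 called genes per list and direction, the genes with the largest SD, runs of 3 neighbours, and a fixed set around growth hormone, lipid and sex chromosome genes. Some genes of that set were not analysed here. Other genes were named after their values were seen. The alternatives were 2 other scalings, a filter on dim genes, variance priors, array weights, other probe set rules, fits with the Jak2-deleted groups, stricter thresholds and leaving out each animal.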

Additional observations from a re-analysis of the deposited data

How the results depend on the processing

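Of 96 genes named by rule, 77 were called, and 0 of these changed direction under any of 18 alternative settings or the 2 chosen after the data were seen. Quantile normalization, centring, the filter on the dimmest 33.3% of genes, trended and robust priors, array weights and other probe set rules gave 118 to 155 autosomal calls, against 130. The robust prior shared 116 of the 138 calls and ended 19 of the 77, among them Cyp17a1, Sult1a1, Gstt3, Slc22a7, Acnat2, Cd36 and Ccnd1 beside those named above. At least a 2-fold difference left 27 male-higher and 52 female-higher genes. An adjusted p under 0.01 left 19 and 38, with 44 instead of 73 called genes on the lists, 12 instead of 27 beside a called neighbour and 5 instead of 10 with a motif match. With all 12 arrays in 4 groups, 96 autosomal genes were called (32 and 64), 84 of the 138 calls were shared, and 33 of the 77 ended: Cyp4a12a, Cyp4a12b, Hsd3b5, C6, Cyp7b1, Cyp2b9, Cyp2b13, Hao2, Cyp2a22, Cyp2c38, Slc22a27, Cyp17a1, Ugt2b1, Ugt2b38, Gstt3, Ces3a, Slco1a1, Slc22a29, Abcb1a, Fgl1, Lpl, Vldlr, Cd36, C8b, C9, Orm2, Ifit3, Cxcl9, Ccnd1, Gadd45a, Cyp2f2, Kdm6a and Vsig4. With 11 arrays, without the Jak2-deleted male 207, 69 male-higher and 115 female-higher genes were called, 5 of the 77 calls ended (Slco1a1, Slc22a29, Ifit3, Gadd45a and Cyp2f2), and 16 genes held a match. Testing all probe sets of the table together, an added alternative with a weaker prior, left 9 male-higher and 23 female-higher genes, 29 on the lists, 8 beside a neighbour and 3 with a match. In that fit 46 of the 77 calls ended, more than in any other setting. Without 1 animal, male-higher genes ran from 18 to 56, female-higher from 45 to 122, listed from 48 to 95, neighbours from 12 to 33, matches from 5 to 14 and separate ranges from 4522 to 5266. Separation is easier with fewer samples. For the other shifts the cause was not tested. Uncalled differences changed sign for Onecut1 (-0.60 without male 116 to 0.14 without male 112), Stat5b (-0.12 without male 116 to 0.0051 without male 126) and Igf1 (-0.19 without female 147 to 0.014 without female 132). No analysis paired by litter was possible because the labels do not state which animals shared a litter. Signal near background limits the fold of dim genes.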

Other observations

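Probe sets that the platform table assigns to several genes were left out above. Added to the test, 14 of 1621 were called by limma (0.864%), 2 higher in males and 12 higher in females, with differences among the 1621 from -2.34 to 2.58. Tested together with every other probe set of the table, 9 of 12147 probe sets without a gene were called, 5 higher in males and 4 higher in females, and their differences ran from -6.85 to 4.88. These probe sets were not traced to genes here. A further 28 autosomal genes had at least a 2-fold difference and separate male and female ranges without being called.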
